A study of Mus musculus with 18 samples.

Results

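Tendons, ligaments and the perichondrium, the fibrous sheath around a cartilage, are built by related fibroblast-like cells, and the 10 genes described here are among those used to recognize them: *Scx*, *Mkx*, *Prrx1*, *Tnmd*, *Tnc*, *Postn*, *Thbs2*, *Thbs4*, *Cilp* and *Pdgfra*. They were taken by symbol from the annotation of the files, where each symbol matched 1 of the 38243 genes counted. The question was whether captures of Meckel's cartilage (MC) carry such a fibrous signature next to that of cartilage, and whether it depends on the *Fgfr2* genotype. The counts come from lower jaw tissue cut out by laser from 6 female C57BL/6 mouse embryos at embryonic day 16.5 (E16.5). Of these, 3 carried 1 copy of the S252W allele of *Fgfr2* (*Fgfr2+/S252W*), a model of Apert syndrome in which a fibroblast growth factor receptor binds its ligands more tightly, and 3 were unaffected littermates (*Fgfr2+/+*). Each embryo gave 1 library of mandibular bone, 1 of MC, the rod of cartilage beside which the jaw bone forms, and 1 of the mandibular condylar cartilage at the jaw joint, so that 18 libraries fell into 6 groups of 3. The labels name no further allele, no drug and no pooling of animals. A normalized count is the number of sequenced fragments on a gene scaled to a common library size, in CPM, with the trimmed mean of M-values (TMM). Differences are log2 fold changes from limma with their standard error (SE), and genes were called where p, adjusted over all genes tested by the method of Benjamini and Hochberg, was below 0.05.

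*Scx* encodes a basic helix-loop-helix transcription factor of tendon and ligament progenitors, *Mkx* a homeobox factor that maintains tendon cells, and *Prrx1* a homeobox factor of limb and jaw mesenchyme that stays on in fibrous sheaths. *Tnmd* encodes tenomodulin, a membrane protein of mature tendon cells. Its close relative *Cnmd* encodes chondromodulin, which is made by chondrocytes. The products of *Tnc*, *Postn*, *Thbs2*, *Thbs4* and *Cilp* are secreted into the matrix: *Tnc* and *Postn* (periostin) mark young bone surfaces and periosteum as well as ligament, *Thbs2* is found in perichondrium and loose connective tissue, *Thbs4* at tendons and muscle attachments, and *Cilp* in articular cartilage, tendon and ligament. *Pdgfra* encodes a receptor for platelet-derived growth factors on mesenchymal cells. Basic helix-loop-helix proteins such as SCX bind the E-box, CANNTG, which reads the same on both strands, and transforming growth factor beta (TGF-beta) and fibroblast growth factors are known to act upstream of *Scx*.

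Promoter sequences are shown for both members of the *Tnmd* and *Cnmd* pair, whose counts below had opposite tissue patterns, and for *Thbs2* and *Thbs4*, whose counts were higher in MC than in the other tissues. Each is the 250 bases before the RefSeq start of the gene on GRCm38.p6, 5' to 3' on the strand of the gene, with every CANNTG in capitals. They lie at chrX:133850758-133851007 on the plus strand (*Tnmd*), where the last bases are already inside the gene as the annotation of the files draws it, and on the minus strand at chr14:79662184-79662433 (*Cnmd*), chr17:14694263-14694512 (*Thbs2*) and chr13:92794819-92795068 (*Thbs4*).
Tnmd: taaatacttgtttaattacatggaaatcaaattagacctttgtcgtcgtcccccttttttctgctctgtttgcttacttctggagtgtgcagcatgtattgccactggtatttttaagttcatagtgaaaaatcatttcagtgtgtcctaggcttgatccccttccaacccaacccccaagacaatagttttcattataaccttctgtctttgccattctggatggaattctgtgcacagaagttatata
Cnmd: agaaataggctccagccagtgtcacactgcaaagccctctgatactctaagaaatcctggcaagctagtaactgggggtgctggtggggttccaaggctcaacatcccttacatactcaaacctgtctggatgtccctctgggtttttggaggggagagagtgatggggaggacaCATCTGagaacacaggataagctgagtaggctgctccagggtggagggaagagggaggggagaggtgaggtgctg
Thbs2: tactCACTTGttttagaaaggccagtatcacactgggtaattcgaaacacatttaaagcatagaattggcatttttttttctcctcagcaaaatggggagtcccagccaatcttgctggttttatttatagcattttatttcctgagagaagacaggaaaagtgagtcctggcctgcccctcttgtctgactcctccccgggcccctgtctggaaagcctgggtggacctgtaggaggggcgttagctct
Thbs4: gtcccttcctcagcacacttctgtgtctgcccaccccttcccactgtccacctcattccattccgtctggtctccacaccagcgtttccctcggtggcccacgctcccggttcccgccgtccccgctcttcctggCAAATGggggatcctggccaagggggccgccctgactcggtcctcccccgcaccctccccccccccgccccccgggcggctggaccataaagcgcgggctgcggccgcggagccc
The *Tnmd* window held 0 E-boxes, and the other windows held 1 each. The CATCTG of the *Cnmd* window is CAGATG on the other strand, and these letters also count as CANNTG. Of the 32851 RefSeq promoter windows of this length, 66.2% held at least 1 CANNTG and 14.4% held CAGATG or CATCTG. A window with or without these letters shows nothing about binding. The bases that follow the window were found at a transcript start for *Tnmd* and *Thbs4*. For *Cnmd* and *Thbs2* they were not, so these starts are less sure. Of the 10 genes, 8 were matched in the promoter table.

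The libraries held between 8218548 and 15585778 fragments on genes, with a median of 10581032, and no 2 libraries were identical. Markers of the labelled tissue were present throughout, and 3 libraries stood apart. The summed normalized count of 14 chondrocyte genes was between 33920 and 41106 in condylar cartilage, 311 to 703 in bone and 660 to 11067 in MC, where the median was 3435. The lowest MC value, 660, was that of *Fgfr2+/+* MC replicate 1, within the range of bone, and its sum of 9 osteoblast genes was 1181 against 153 to 571 in the other MC libraries and 8609 to 11604 in bone. The highest MC value, 11067, was that of *Fgfr2+/S252W* MC replicate 1, against 660 to 4169 in the other MC libraries. The tissue calls that changed without either of these libraries, and the differences of *Tnc* without the first, are therefore also given. The osteoblast sum was 3057 to 4003 in 4 condylar libraries, 7395 in *Fgfr2+/+* condylar replicate 3 and 11518.5, within the range of bone, in *Fgfr2+/S252W* condylar replicate 3. Captures also differed in skeletal muscle RNA. The summed count of 12 muscle genes was 1044, 978 and 181 in the *Fgfr2+/+* bone libraries and 67.2, 80.9 and 184 in the *Fgfr2+/S252W* bone libraries. It was 46.6, 1131 and 115 in *Fgfr2+/+* MC, 106, 56.5 and 372 in *Fgfr2+/S252W* MC, 26.1, 317 and 623 in *Fgfr2+/+* condylar cartilage and 30.9 to 34.6 in *Fgfr2+/S252W* condylar cartilage. *Gm42418*, a locus that overlaps ribosomal RNA, took 24.1% to 39.4% of the counts in MC and 5.58% to 9.33% in bone. *Fgfr2* itself had median normalized counts of 212 in bone and 368 in MC, with 116 in condylar cartilage, and passed in no genotype comparison. Its count does not read the allele, so it does not check the genotype labels.

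**Figure D1:**
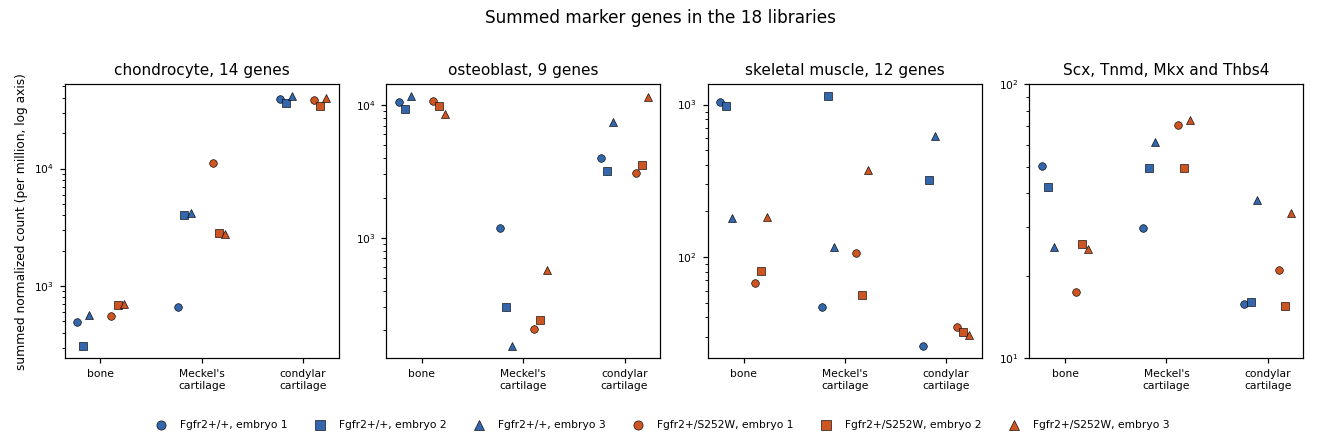
Summed normalized counts (CPM, log axis) of the chondrocyte, osteoblast and skeletal muscle marker genes and of *Scx*, *Tnmd*, *Mkx* and *Thbs4* in the 18 libraries, by tissue on the x axis, with genotype by color and embryo by symbol. The MC sums of chondrocyte genes lie between those of bone and condylar cartilage, except that of *Fgfr2+/+* replicate 1, which at 660 is within the range of bone, and the muscle sums range from 26.1 to 1131.

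Several of these genes were high in MC. *Prrx1*, *Thbs2* and *Thbs4* were higher in MC than in bone and in condylar cartilage, *Scx* followed the same order at very low counts, and *Postn* and *Pdgfra* were higher in MC than in condylar cartilage. *Tnc* was lower in MC than in either other tissue, and *Tnmd*, the marker of mature tendon, was nearly absent from both cartilages. Between MC and bone, 5 of the 7 genes that passed the filter on low values were called, 4 higher and 1 lower in MC, where 49.3% of the 11469 genes tested were called (24.6% higher and 24.7% lower). Between MC and condylar cartilage all 7 were called, 6 higher and 1 lower in MC, against 57.7% of all genes (29.1% higher and 28.5% lower). Between condylar cartilage and bone 6 were lower in condylar cartilage and none higher, against 46.8% of all genes (22.6% higher and 24.2% lower). Tissue comparisons were made within embryos and averaged over the genotypes. In such bulk captures, fewer cells of a type and less RNA per cell cannot be told apart.

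**Figure D2:**
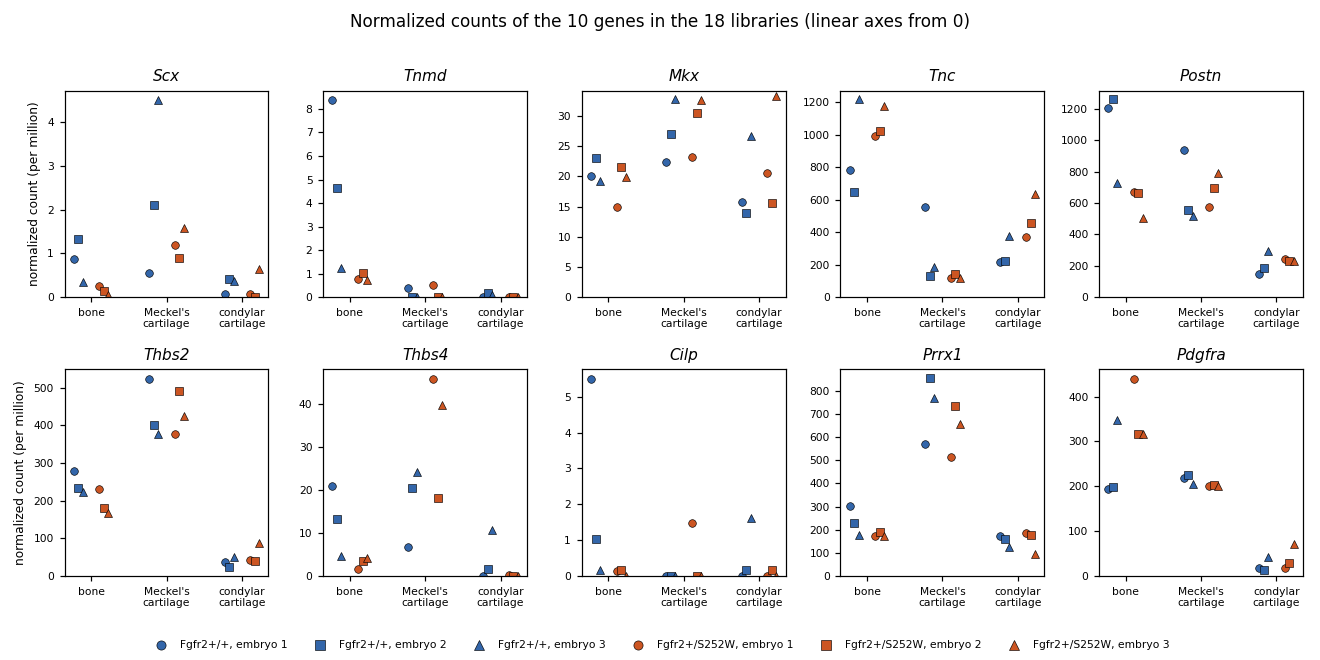
Normalized counts (CPM, y axes from 0, each gene on its own scale) of the 10 genes in bone, MC and condylar cartilage, 1 point per library, with genotype by color and embryo by symbol. All 6 MC points of *Prrx1* (516 to 855) and *Thbs2* (378 to 524) lie above the points of the other tissues, and those of *Tnc* (117 to 554) lie below all bone points (649 to 1218).

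Per length, in median FPKM (normalized counts divided by the exon length in kilobases), *Postn* was the most abundant of the 10 in every tissue, at 213 FPKM in bone and 193 in MC, with 70.4 in condylar cartilage. The order below it differed. In bone it was followed by *Tnc* at 129.8 FPKM and *Pdgfra* at 46.9, and in condylar cartilage by *Tnc* at 48.1 and *Prrx1* at 16.9. The ranges of *Postn* and *Tnc* overlapped across the libraries of each of these tissues. In *Fgfr2+/S252W* condylar replicate 3 *Tnc* was the higher, at 81.8 against 71.0 FPKM. In MC the next places were held by *Prrx1* at 70.2 FPKM, *Thbs2* at 69.7, *Pdgfra* at 30.4 and *Tnc* at 17.6, and the first of these overlapped across libraries. *Mkx* was at 6.24, 8.96 and 5.66 FPKM in bone, MC and condylar cartilage, *Thbs4* reached 6.98 FPKM in MC, and *Scx*, *Tnmd* and *Cilp* had medians of 1.22 FPKM or less in each tissue.

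Among the transcription factors, *Prrx1* (chr1:163245116-163313710, minus strand, GRCm38) gave the clearest difference of MC. Its normalized counts in MC were 516, 736 and 659 in *Fgfr2+/S252W* and 569.8, 855 and 769 in *Fgfr2+/+* embryos. In bone they were 173, 189 and 173 in *Fgfr2+/S252W* and 302, 231 and 176 in *Fgfr2+/+* embryos, and in condylar cartilage 185, 179 and 93.3 and 173, 162 and 127. No MC library overlapped another tissue, and the level of MC was 3.32-fold that of bone (log2 1.73, SE 0.16, adjusted p = 2.30e-07) and 4.47-fold that of condylar cartilage (log2 2.16, SE 0.16, adjusted p = 6.13e-09), in 6 of 6 embryos each. Among all genes tested, 11.4% and 14.1% lay above the other tissue without overlap in these comparisons. Condylar cartilage and bone overlapped. The difference of -0.43 (SE 0.16) between them passed at an adjusted p of 0.0388, a call that was lost under 13 other settings, among them the filterByExpr filter (adjusted p = 0.0525) and the fit without *Fgfr2+/S252W* condylar replicate 3 (-0.26, adjusted p = 0.165). The lowest MC values were those of replicate 1 of each genotype. Without *Fgfr2+/+* MC replicate 1 the difference between MC and bone was 1.88.

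*Mkx* was at similar counts everywhere. In MC it had 23.1, 30.4 and 32.6 normalized counts in *Fgfr2+/S252W* and 22.3, 27.0 and 32.8 in *Fgfr2+/+* embryos, and in bone 14.9, 21.5 and 19.96 and 20.01, 23.0 and 19.2. In condylar cartilage the counts were 20.6, 15.6 and 33.2 and 15.7, 13.9 and 26.6, so the tissues overlapped. MC was higher than bone by 0.50 on the log2 scale (SE 0.19, adjusted p = 0.0343, 6 of 6 embryos) and higher than condylar cartilage by 0.47 (SE 0.18, adjusted p = 0.0373, 5 of 6 embryos). Each call was lost under 13 of 28 other settings, with filterByExpr at adjusted p-values of 0.0544 and 0.0798, and without *Fgfr2+/S252W* MC replicate 1 at 0.0617 and 0.0721. Condylar cartilage and bone differed by 0.04 (95% interval -0.34 to 0.41).

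*Scx* (chr15:76457438-76459468, plus strand) was at the edge of detection. Fragments per library numbered between 0 and 24, and summed to 46 in bone and 63 in MC, with 16 in condylar cartilage. Its normalized counts in MC were 1.20, 0.901 and 1.58 in *Fgfr2+/S252W* and 0.558, 2.10 and 4.50 in *Fgfr2+/+* embryos. They were 0.256, 0.133 and 0.0535 and 0.870, 1.32 and 0.339 in bone, and 0.0669, 0 and 0.641 and 0.0751, 0.415 and 0.361 in condylar cartilage. MC was higher than bone in 5 of 6 embryos and higher than condylar cartilage in 6 of 6, and the ranges of the tissues overlapped. *Scx* missed the FPKM filter and passed filterByExpr (14881 genes) through 3 MC and 2 bone libraries, none of condylar cartilage, so its tissue differences in that fit are given as descriptions, with no test. They were 2.24 (SE 0.62) between MC and bone, 2.81 (SE 0.69) between MC and condylar cartilage and -0.57 (SE 0.74) between condylar cartilage and bone. The ratio of MC to condylar cartilage in summed fragments over normalized library size was 7.15 (95% exact interval 4.08 to 13.3, counting error only). Without *Fgfr2+/S252W* bone replicate 3, which held the lowest bone count, the MC to bone difference was 1.62. Within genotypes it was 3.08 in *Fgfr2+/S252W* and 1.40 in *Fgfr2+/+* embryos, and the interaction, also a description, was 1.68 (SE 1.24). Both exons of *Scx*, 1136 bases, lie within the span of *Bop1* on the opposite strand, and fragments were counted without regard to strand, so *Scx* RNA and unspliced *Bop1* RNA cannot be told apart here. *Bop1*, a ribosome assembly factor, had median normalized counts of 7.27 in bone and 12.3 in MC, with 11.4 in condylar cartilage.

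*Tnmd* (chrX:133850980-133865577, plus strand) was a gene of the bone captures in these data. It had 8.36, 4.62 and 1.24 normalized counts in *Fgfr2+/+* bone, from 125, 63 and 22 fragments, and 0.768, 1.02 and 0.749 in *Fgfr2+/S252W* bone, from 15, 23 and 14 fragments. In MC 1 library of each genotype held 4 fragments, at 0.534 normalized counts in *Fgfr2+/S252W* replicate 1 and 0.372 in *Fgfr2+/+* replicate 1, and the other 4 held 0, which allows up to 0.525 to 0.675 normalized counts at 3 fragments per library. In condylar cartilage 2 and 1 fragments were counted in *Fgfr2+/+* replicates 2 and 3 and 0 in the other libraries, which allows up to 0.201 to 0.385. No bone library overlapped either cartilage, and 12.7% and 18.1% of genes lay lower than bone without overlap in MC and in condylar cartilage in the fit with filterByExpr. *Tnmd* passed that filter through its 6 bone libraries alone, so no test of its tissue differences is given, and its lack of overlap is a description. The fitted log2 differences from bone were -3.38 (SE 0.66) in MC and -4.76 (SE 0.67) in condylar cartilage, in 6 of 6 embryos, and depend on the handling of zero counts. From summed fragments, bone held 11.9 times the *Tnmd* of MC (262 against 8 fragments, 95% exact interval 5.96 to 27.9, counting error only) and 57.7 times that of condylar cartilage (262 against 3, interval 19.5 to 282). The MC to bone difference was -4.58 in *Fgfr2+/+* embryos and -2.18 in *Fgfr2+/S252W* embryos. Their difference, the interaction, was 2.40 (SE 1.32) and is likewise a description. In bone the 8.36 and 4.62 counts were in the libraries with muscle sums of 1044 and 978, and the part of muscle attachments in *Tnmd* was not tested.

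*Cnmd*, the relative of *Tnmd* and 1 of the 14 chondrocyte markers, had the opposite pattern. Its fragments per library numbered 0 to 2 in bone, 94 to 1247 in MC and 1808 to 4516 in condylar cartilage, at median normalized counts of 0.105, 30.6 and 228. MC lay above bone and below condylar cartilage without overlap, in 6 of 6 embryos each. The difference between the cartilages was -2.70 (SE 1.20), which missed the threshold (adjusted p = 0.0638). The promoter windows of this pair, shown above with their limits, differed in their E-box count, 1 in *Cnmd* and 0 in *Tnmd*, which shows nothing about binding.

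**Figure D3:**
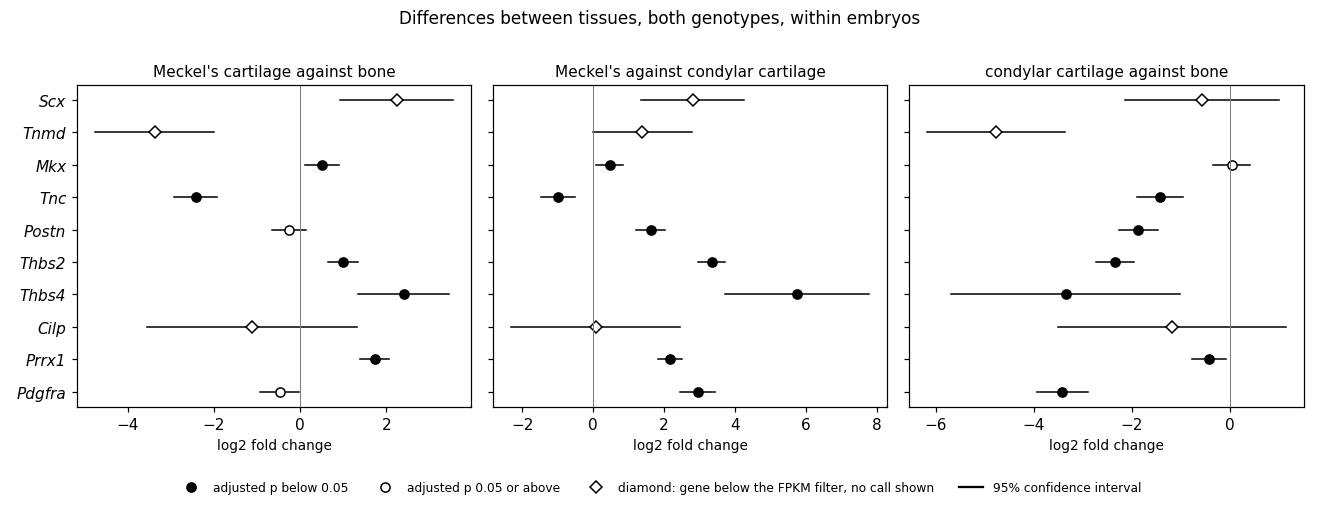
Log2 fold changes between tissues for the 10 genes, averaged over genotypes within embryos, with 95% confidence intervals as lines. Filled circles passed at an adjusted p below 0.05, and open diamonds are *Scx*, *Tnmd* and *Cilp*, fitted with filterByExpr and shown without a call. *Prrx1*, *Thbs2*, *Thbs4* and *Scx* lie above 0 in both comparisons of MC, *Tnc* lies below 0 in both, and *Tnmd* lies near -3.38 against bone.

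Of the matrix genes, *Thbs2* (chr17:14665500-14694262, minus strand), a secreted thrombospondin that modulates cell contacts with matrix, was ordered MC, bone, condylar cartilage without overlap. Its normalized counts were 378, 491 and 425 in *Fgfr2+/S252W* MC and 524, 401 and 378 in *Fgfr2+/+* MC. They were 231, 181 and 167 and 280.0, 233 and 222 in bone, and 41.4, 39.7 and 87.4 and 37.3, 23.0 and 49.99 in condylar cartilage. The level in MC was 1.99-fold that of bone (log2 0.99, SE 0.17, adjusted p = 0.000117) and 10.1-fold that of condylar cartilage (log2 3.33, SE 0.18, adjusted p = 1.61e-10). Condylar cartilage was below bone by 2.34 (SE 0.19, adjusted p = 2.00e-08), and 16.4% of all genes lay below bone there without overlap. All 6 embryos showed each order.

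*Thbs4* (chr13:92751590-92794818, minus strand) was 45.8, 18.2 and 39.9 in *Fgfr2+/S252W* MC and 6.69, 20.5 and 24.2 in *Fgfr2+/+* MC. In bone it was 1.54, 3.41 and 4.23 in *Fgfr2+/S252W* and 21.0, 13.3 and 4.74 in *Fgfr2+/+* embryos. In condylar cartilage only 3 libraries held fragments, 5 in *Fgfr2+/S252W* replicate 1 (0.335 normalized counts) and 19 and 118 in *Fgfr2+/+* replicates 2 and 3 (1.58 and 10.6). MC was higher than bone in 5 of 6 embryos, by 2.40 (SE 0.50, adjusted p = 0.000762), and higher than condylar cartilage in 6 of 6, by 5.75 (SE 0.96, adjusted p = 6.71e-05), while condylar cartilage was below bone by 3.35 (SE 1.11, adjusted p = 0.0193). The last call was lost within each genotype (adjusted p = 0.147 and 0.0861), and without *Fgfr2+/S252W* condylar replicate 2 (-3.15, adjusted p = 0.0565) or 3 (-3.03, adjusted p = 0.0580). *Fgfr2+/+* replicate 1 was the embryo in which bone was higher. The condylar median was 0.0523 FPKM, so *Thbs4* passed the filter on low values mainly through MC and bone libraries. Its calls against condylar cartilage, also those counted above, carry this limit. Their size depends on the handling of zero counts. MC was higher than condylar cartilage by 3.27 in *Fgfr2+/+* and by 8.22 in *Fgfr2+/S252W* embryos. With DESeq2 the MC to bone difference was 1.47 and did not pass (adjusted p = 0.198). Within genotypes it was 3.73 in *Fgfr2+/S252W* (adjusted p = 0.00105) and 1.07 in *Fgfr2+/+* embryos (adjusted p = 0.229), and the interaction was 2.66 (SE 1.00, adjusted p = 0.453). The bone counts of 21.0 and 13.3 and the condylar counts of 1.58 and 10.6 were in the libraries of these tissues with the highest muscle sums, 1044 and 978 in bone and 317 and 623 in condylar cartilage. In MC the highest *Thbs4* count, 45.8, was in *Fgfr2+/S252W* replicate 1, the library with the highest chondrocyte sum of MC and a muscle sum of 106, and without it the MC to bone difference was 2.06 (adjusted p = 0.0111). The part of muscle attachments in these counts was not tested.

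The other thrombospondins were distributed differently. *Thbs3* had the order of its relatives in part, with medians of 50.8 normalized counts in MC, 11.8 in bone and 18.6 in condylar cartilage, and MC was higher than bone by 2.35 (SE 0.17, adjusted p = 1.71e-08) and than condylar cartilage by 1.55 (SE 0.17, adjusted p = 5.70e-07). *Thbs1* and *Comp*, the cartilage oligomeric matrix protein, were highest in condylar cartilage. *Thbs1* medians were 83.0 in bone and 151 in MC, with 969 in condylar cartilage, and those of *Comp* 0.140, 15.04 and 463. MC was below condylar cartilage by 2.59 for *Thbs1* (SE 0.23, adjusted p = 4.72e-08) and by 4.78 for *Comp* (SE 0.77, adjusted p = 4.41e-05). Thus 3 of the 5 thrombospondin genes were higher in MC than in condylar cartilage and 2 were lower, where 29.1% and 28.5% of all genes were.

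*Tnc* (chr4:63959785-64047015, minus strand), which encodes the anti-adhesive matrix glycoprotein tenascin C, was highest in bone and lowest in MC. Its normalized counts in bone were 995, 1022 and 1176 in *Fgfr2+/S252W* and 781, 649 and 1218 in *Fgfr2+/+* embryos. In MC they were 117, 144 and 120.2 and 554, 129 and 188, and in condylar cartilage 369, 455 and 635 and 216, 221 and 379.6. The value of 554 belongs to *Fgfr2+/+* MC replicate 1, the library with the high osteoblast sum, and the other 5 MC libraries lie between 117 and 188, below all others. MC was 5.38-fold lower than bone (log2 -2.43, SE 0.24, adjusted p = 4.53e-07, 6 of 6 embryos) and 1.99-fold lower than condylar cartilage (log2 -0.99, SE 0.23, adjusted p = 0.00131, 5 of 6 embryos). Without that library the differences were -2.83 and -1.41. Condylar cartilage was below bone by 1.44 (SE 0.22, adjusted p = 4.12e-05). Against condylar cartilage, MC was lower by 1.91 in *Fgfr2+/S252W* embryos (adjusted p = 0.000162) and gave -0.08 in *Fgfr2+/+* embryos (adjusted p = 0.866). The difference between these was -1.83 (SE 0.46, adjusted p = 0.193), and -1.03 (adjusted p = 0.235) without *Fgfr2+/+* MC replicate 1. *Tnn*, the tenascin of periosteum, was also lower in MC, at a median of 32.5 normalized counts against 91.6 in bone (log2 -1.15, SE 0.33, adjusted p = 0.00837) and 115 in condylar cartilage (log2 -1.39, SE 0.31, adjusted p = 0.000847). Its highest MC count, 170.2, was in a single library among MC libraries with a median of 32.5. *Tnr* and *Tnxb* had at most 12 and 15 fragments in a library.

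*Postn* (chr3:54361109-54391034, plus strand) was high in bone and MC. Its normalized counts in MC were 578, 694 and 788 in *Fgfr2+/S252W* and 936, 555 and 518 in *Fgfr2+/+* embryos, and in bone 672, 666 and 502 and 1204, 1261 and 729. In condylar cartilage they were 247, 229.6 and 233 and 148, 187 and 293, below every library of the other tissues. MC was 3.06-fold the level of condylar cartilage (log2 1.61, SE 0.19, adjusted p = 1.28e-06, 6 of 6 embryos), and condylar cartilage was below bone by 1.87 (SE 0.19, adjusted p = 3.85e-07). Between MC and bone the difference was -0.26 (95% interval -0.65 to 0.14, adjusted p = 0.274), and without *Fgfr2+/+* MC replicate 1 it was -0.43 and passed narrowly (adjusted p = 0.0499). *Tgfbi*, which encodes the relative of periostin, had medians of 29.4 in bone and 67.4 in MC, with 166 in condylar cartilage. It was lower in MC than in condylar cartilage by 1.67 (SE 0.27, adjusted p = 4.91e-05), where *Postn* was higher.

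*Cilp* (chr9:65265180-65280605, plus strand) had fragments in 9 of 18 libraries, of which 5 were of bone. In bone it had 82, 14 and 3 fragments in *Fgfr2+/+* embryos (5.49, 1.03 and 0.169 normalized counts) and 0.154, 0.177 and 0 normalized counts in *Fgfr2+/S252W* embryos. In MC only *Fgfr2+/S252W* replicate 1 held fragments, 11 (1.47 normalized counts), and in condylar cartilage the counts were 0, 0.172 and 0 and 0, 0.166 and 1.62. The fitted difference between MC and bone was -1.12 (95% interval -3.56 to 1.31), and -1.95 without that MC library. The highest counts of bone and of condylar cartilage were again in the libraries of these tissues with the highest muscle sums, 1044 and 623. *Cilp2* was in every MC library, at 11 to 29 fragments and a median of 3.70 normalized counts, against 0.120 in bone and 0.284 in condylar cartilage. It passed filterByExpr through 6 MC libraries and 1 of condylar cartilage, and the fitted differences of MC, 4.34 (SE 0.58) and 3.61 (SE 0.66), are descriptions.

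*Pdgfra* (chr5:75152291-75198204, plus strand) separated condylar cartilage from the other tissues. Its normalized counts were 201, 203 and 200.2 in *Fgfr2+/S252W* MC and 219, 225 and 206 in *Fgfr2+/+* MC. They were 439, 316 and 316 and 194, 198 and 347 in bone, and 18.7, 28.9 and 71.3 and 17.96, 13.0 and 42.6 in condylar cartilage. The level in MC was 7.69-fold that of condylar cartilage (log2 2.94, SE 0.23, adjusted p = 1.19e-08), and condylar cartilage was below bone by 3.42 (SE 0.25, adjusted p = 5.76e-09), in 6 of 6 embryos each. The difference of -0.48 (SE 0.21) between MC and bone missed the threshold (adjusted p = 0.0725), and passed under 9 other settings, among them filterByExpr (adjusted p = 0.0443) and the fits without *Fgfr2+/+* MC replicate 1 (-0.58, adjusted p = 0.0397) and without *Fgfr2+/S252W* condylar replicate 3 (-0.49, adjusted p = 0.0180). The highest condylar counts, 71.3 and 42.6, were in the libraries with osteoblast sums of 11518.5 and 7395. The related receptor *Pdgfrb*, found on pericytes and fibroblasts, was higher in MC than in bone, by 0.84 (SE 0.22, adjusted p = 0.00437), and than in condylar cartilage, by 2.98 (SE 0.25, adjusted p = 2.95e-08). *Pdgfra* fragments include any from the microRNA gene *Mir7025*, which shares 30 exon bases with it.

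Among the relatives of the transcription factors, *Prrx2* had medians of 4.04 normalized counts in bone and 14.1 in MC, with 2.62 in condylar cartilage, the order of *Prrx1* in MC. It was higher in MC than in bone by 1.77 (SE 0.28, adjusted p = 7.25e-05) and than in condylar cartilage by 2.56 (SE 0.33, adjusted p = 4.01e-06). *Irx5*, an Iroquois homeobox factor related to *Mkx*, was lowest in MC, at a median of 1.48 against 8.77 in bone and 25.6 in condylar cartilage. Its log2 differences from them in MC were -2.52 (SE 0.43, adjusted p = 0.000132) and -4.27 (SE 0.37, adjusted p = 3.93e-08). *Irx3* medians were 0.938 in MC, 1.82 in bone and 2.14 in condylar cartilage, and *Tcf15*, the relative of *Scx*, had at most 8 fragments in a library.

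Other genes of the same tissues were examined as lists. Of 24 further tendon and ligament genes 21 were tested. Between MC and bone 9 were higher and 8 lower (24.6% and 24.7% of all genes), with a median log2 difference of 0.13 against 0.00 over all genes. Between MC and condylar cartilage 9 were higher and 10 lower (29.1% and 28.5% of all genes), with a median of -0.46 against 0.01. The collagens and small proteoglycans of this list that had the smallest p were lower in MC than in bone, *Col1a2* by 3.55 (SE 0.22, adjusted p = 6.85e-09), *Dcn* (decorin) by 3.06 (SE 0.21, adjusted p = 1.33e-08) and *Col5a2* by 1.81 (SE 0.14, adjusted p = 3.10e-08). Against condylar cartilage, genes with the smallest p included the homeobox gene *Six2*, higher in MC by 4.42 (SE 0.28, adjusted p = 1.04e-09), and *Col6a3*, lower in MC (log2 -1.50, SE 0.11, adjusted p = 4.14e-09). Between condylar cartilage and bone 5 of the list were higher and 12 lower (22.6% and 24.2% of all genes).

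Of 18 further genes of perichondrium and mesenchyme 13 were tested. Between MC and bone 7 were higher and 2 lower (median 0.84 against 0.00 over all genes), between MC and condylar cartilage 10 were higher and 3 lower (median 1.88 against 0.01), and between condylar cartilage and bone 3 were higher and 8 lower (median -1.41). The shares of all genes called were those given for the tendon and ligament list, 24.6% higher and 24.7% lower in the first of these comparisons, 29.1% and 28.5% in the second and 22.6% and 24.2% in the last. The genes with the smallest p against bone were *Msx2*, higher by 3.50 (SE 0.32, adjusted p = 2.13e-07), *Gli1* by 1.73 (SE 0.19, adjusted p = 2.04e-06) and *Msx1* by 1.23 (SE 0.16, adjusted p = 7.24e-06). *Msx1* and *Msx2* are homeobox genes of neural crest mesenchyme, and *Gli1* is a target of hedgehog signaling. Against condylar cartilage, *Msx1* was higher by 6.48 (SE 0.35, adjusted p = 1.92e-10), *Fap*, a protease of activated fibroblasts, by 3.24 (SE 0.20, adjusted p = 7.14e-10) and *Msx2* by 5.83 (SE 0.47, adjusted p = 1.80e-08). *Prrx2* and *Pdgfrb* belong to this list as well as to the relatives above.

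Of 15 ligands, receptors and effectors of signals that act on these genes 10 were tested. In MC 3 were higher and 5 lower than in bone (median -0.28), where 24.6% and 24.7% of all genes were, and 5 were higher and 2 lower than in condylar cartilage (median 0.34), where 29.1% and 28.5% were. *Tgfb3*, a TGF-beta ligand, was higher in MC than in bone by 2.25 (SE 0.16, adjusted p = 2.12e-08) and than in condylar cartilage by 1.90 (SE 0.17, adjusted p = 4.00e-08). The receptor gene *Tgfbr1* was lower in MC than in bone by 1.47 (SE 0.15, adjusted p = 6.58e-07), where the ligand gene *Tgfb2* was higher by 1.27 (SE 0.18, adjusted p = 2.70e-05). Against condylar cartilage *Tgfbr2* was higher by 1.73 (SE 0.14, adjusted p = 2.24e-08), and *Pdgfc*, a ligand of the receptor encoded by *Pdgfra*, by 3.49 (SE 0.35, adjusted p = 2.35e-07).

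No gene of the 10 passed between genotypes in any tissue, with 0 of 7 past the FPKM filter and 0 of 10 with filterByExpr. Over all genes 10 of 11469 passed in bone (0.0872%) and 0 in either cartilage (932, 1761 and 351 at an unadjusted p below 0.05). With edgeR's quasi-likelihood test 4, 90 and 0 genes passed, and with DESeq2 17, 423 and 3, with none of the 10 among them. In bone, *Postn*, *Tnmd*, *Thbs4* and *Scx* lay lower in all 3 *Fgfr2+/S252W* libraries than in all 3 *Fgfr2+/+* libraries, as did 9.7% of all genes with the FPKM filter and 10.3% with filterByExpr. *Postn* gave 502 to 672 normalized counts against 729 to 1261, a log2 difference of -0.77 (SE 0.24, 95% interval -1.27 to -0.26, adjusted p = 0.335). The differences of *Tnmd* and *Thbs4* were -1.99 (SE 0.65, adjusted p = 0.326) and -1.91 (SE 0.79, adjusted p = 0.541), and that of *Scx* was -2.26 (SE 0.95). That of *Cilp* was -3.28 (SE 1.38), from 82, 14 and 3 fragments in *Fgfr2+/+* bone. It ranged from -2.10 without replicate 1 to -4.63 without replicate 3 of these. *Cilp* passed filterByExpr through 4 libraries, and its 2 of bone were both *Fgfr2+/+*, as were the 2 bone libraries of *Scx*. The bone genotype differences of *Cilp* and *Scx* are therefore descriptions, with no test. Those of *Mkx*, *Tnc*, *Thbs2*, *Prrx1* and *Pdgfra* lay between -0.37 and 0.57.

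Muscle genes also differed among the bone libraries. The muscle sum of 12 genes was 181 to 1044 in *Fgfr2+/+* and 67.2 to 184 in *Fgfr2+/S252W* bone, and all 6 muscle genes tested gave lower values in *Fgfr2+/S252W* bone (median log2 difference -3.44, none called), while their defining genes were present in every bone group. The 2 bone libraries with the highest muscle sums, *Fgfr2+/+* replicates 1 and 2, held 8.36 and 4.62 *Tnmd*, 21.0 and 13.3 *Thbs4* and 1204 and 1261 *Postn* normalized counts. Replicate 3, with a muscle sum of 181, held 1.24, 4.74 and 729, and the *Fgfr2+/S252W* libraries at most 1.02, 4.23 and 672. *Fgfr2+/S252W* bone replicate 3, with a muscle sum of 184, held 0.749 *Tnmd*, 4.23 *Thbs4* and 502 *Postn*. Its *Tnmd* and *Postn* counts were the lowest of all bone libraries. Without *Fgfr2+/+* replicate 3 the *Tnmd* difference was -2.85 and passed (SE 0.49, adjusted p = 0.00910), and without *Fgfr2+/+* replicate 1 it was -1.38 (SE 0.60, adjusted p = 0.999). *Fgfr2+/+* bone also held more red blood cell RNA, with sums of 1250 to 1503 against 313 to 595. The mitochondrial share of the counts was 36.0% and 34.8% in *Fgfr2+/+* bone replicates 1 and 2 and 20.4% to 23.6% in the other bone libraries. The part of muscle, blood and mitochondrial RNA in the genotype differences was not tested. With sample quality weights, 589 of 11469 genes were called in bone, 275 higher and 314 lower. Of the 7 genes past the FPKM filter 2 were then called, both lower, *Postn* (-0.80, adjusted p = 0.00724) and *Thbs4* (-2.09, adjusted p = 0.0177). In the weighted fit with filterByExpr, whose calls over all genes were not counted, *Tnmd* passed (-2.13, adjusted p = 0.00902). *Scx* gave -2.35 there, a description.

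**Figure D4:**
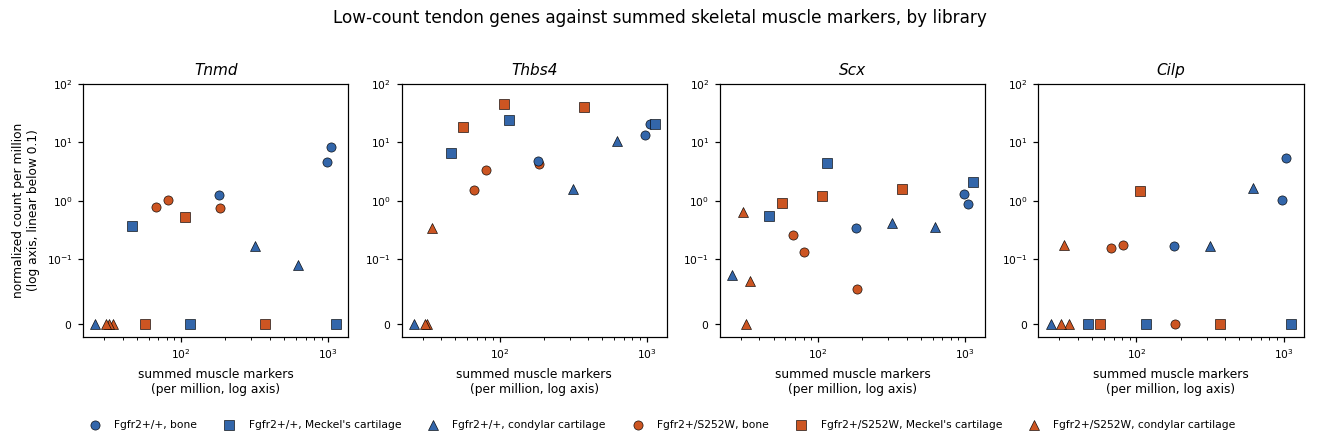
Normalized counts (CPM) of *Tnmd*, *Thbs4*, *Scx* and *Cilp* (y axes, log scale with a linear part below 0.1) against the summed normalized count of 12 skeletal muscle genes (x axes, log scale) in the 18 libraries, with genotype by color and tissue by symbol. The *Fgfr2+/+* bone libraries at muscle sums of 978 and 1044 hold the highest *Tnmd* counts, 4.62 and 8.36, whereas the MC library at 1131 holds 0.

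In MC, *Tnc* gave 117 to 144 normalized counts in *Fgfr2+/S252W* and 129 to 554 in *Fgfr2+/+* embryos, a difference of -0.98 (SE 0.40, adjusted p = 0.254) that became -0.29 (adjusted p = 0.741) without *Fgfr2+/+* replicate 1. *Thbs4* gave a difference of 1.37 (SE 0.68, adjusted p = 0.342), and 0.61 (adjusted p = 0.758) without that library. *Pdgfra* was lower in all 3 *Fgfr2+/S252W* than in all 3 *Fgfr2+/+* MC libraries, by 0.10 on the log2 scale (95% interval -0.78 to 0.57, adjusted p = 0.912), the only gene of the 7 without overlap where 13.4% of all genes had none. The differences of *Prrx1*, *Mkx*, *Postn* and *Thbs2* lay between -0.19 and 0.09. In condylar cartilage *Tnc* gave the clearest difference, 0.85 (SE 0.35, 95% interval 0.12 to 1.58, adjusted p = 0.998), with 369 to 635 against 216 to 379.6. The highest count of each genotype, 635 and 379.6, was in the library with its highest osteoblast sum, 11518.5 and 7395. Without *Fgfr2+/S252W* replicate 3 the difference of *Tnc* was 0.64 (SE 0.38, adjusted p = 0.998). The difference of *Thbs2* was 0.54 (95% interval -0.06 to 1.14), and 0.22 (SE 0.27, adjusted p = 0.998) without that library. The part of bone RNA in these differences was not tested. *Thbs4* was seen in *Fgfr2+/+* replicates 2 and 3, with muscle sums of 317 and 623, and in *Fgfr2+/S252W* replicate 1.

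**Figure D5:**
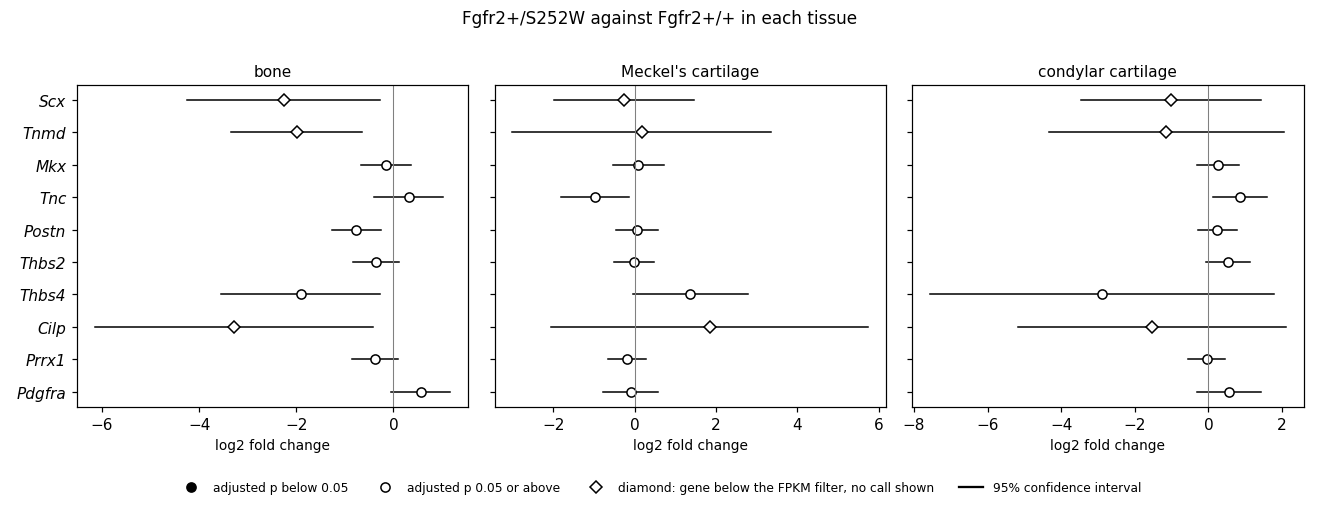
Log2 fold changes of *Fgfr2+/S252W* against *Fgfr2+/+* for the 10 genes in bone, MC and condylar cartilage, with 95% confidence intervals as lines. Every symbol is open, since no adjusted p of a circle was below 0.05 and diamonds (*Scx*, *Tnmd* and *Cilp*) are shown without a call. The intervals of *Tnmd*, *Thbs4*, *Scx*, *Cilp* and *Postn* in bone lie below 0.

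Whether the genotype effect differed between tissues was tested as an interaction. Over all genes 4 passed between MC and bone (0.0349%) and 0 in the other comparisons (1046, 1184 and 328 at an unadjusted p below 0.05), with edgeR 1, 0 and 0 and with DESeq2 68, 40 and 2, and none of the 10 genes passed in limma. At an unadjusted p below 0.05, the effect in MC minus that in bone was -1.29 for *Tnc* (adjusted p = 0.447, and -0.51 with an adjusted p of 0.559 without *Fgfr2+/+* MC replicate 1), 0.84 for *Postn* (adjusted p = 0.525) and 2.66 for *Thbs4* (adjusted p = 0.453). That of *Cilp* was 5.03 and is a description, as above. The effect in MC minus that in condylar cartilage was -1.83 for *Tnc* (adjusted p = 0.193) and 4.95 for *Thbs4* (adjusted p = 0.390). Between condylar cartilage and bone, *Postn* gave 1.01 and *Thbs2* 0.90 (adjusted p = 0.9997 each), and *Thbs2* gave 0.50 without *Fgfr2+/S252W* condylar replicate 3. With 1 library left out none of these interactions passed. Those of MC and bone ranged from -1.74 to -0.51 for *Tnc*, 0.62 to 1.16 for *Postn*, 1.76 to 4.35 for *Thbs4* and 3.03 to 7.41 for *Cilp*, those of MC and condylar cartilage from -2.27 to -1.03 for *Tnc* and 2.90 to 6.68 for *Thbs4*, and those of condylar cartilage and bone from 0.60 to 1.49 for *Postn* and 0.50 to 1.23 for *Thbs2*.

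The tendon genes *Scx*, *Tnmd* and *Mkx* were also compared with 14880 other genes by the root mean square difference of their 6 group means on the log2 scale, each centered on its own mean. Before the log2 step 0.5 was added to each normalized count. Closest to *Mkx*, whose own group means span 0.64, were *Phc2* (0.0536), *Rflnb* (0.0722) and *Tmem243* (0.0732). Closest to *Tnmd*, with a span of 3.10, were *Ctla2a* (0.338), *Cer1* (0.342) and *Pcdh10* (0.354), each with at most 140 fragments in a library. Closest to *Scx*, with a span of 1.90, were *Gm24146* (0.0848), *Zfp956* (0.128) and the small nuclear RNA gene *Rn7sk* (0.163). These values describe 6 group means and were not tested. The added 0.5 narrows the spans of *Scx* and *Tnmd*, whose counts lay below it in several libraries.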

How the data were processed

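Laser capture libraries of 3 tissues from 6 embryos, with the group of each from its labels, were analyzed. The authors amplified the RNA (NuGEN Ovation RNA-Seq System v2), made Nextera XT libraries, sequenced paired ends, aligned them with STAR (mm10) and, with Ensembl release 75, made fragment counts in featureCounts 1.5.0-p1, without regard to strand. The deposited values are whole-number counts per gene, without normalization. Removal of PCR duplicates is not stated, so counting intervals cover counting error only. How cells at the edge of a capture were treated is not given in the sources used here.

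The fit held the 11469 genes whose FPKM exceeded 1 in 50% or more of the libraries. TMM factors and voom were computed, and limma 3.58.1 was run in R 4.3.3 with edgeR 4.0.16. These steps follow the methods of the study. Genotypes were compared in a fit of 6 group means (12 residual degrees of freedom). Tissues and interactions were compared with embryo as a block (8 residual degrees of freedom). The embryo of each library was read from the shared start of its description label, since no label states it outright. *Scx*, *Tnmd* and *Cilp* did not pass the filter and were taken from a fit after filterByExpr (14881 genes), a choice made after seeing the data. Which libraries carry such a gene past the filter depends on its tissue levels, so their tissue differences and interactions are given with no test. The bone libraries that carried *Scx* and *Cilp* were all *Fgfr2+/+*, so their bone genotype differences are also given with no test. All adjusted p-values are Benjamini-Hochberg values of limma, two-sided, unless another tool is named. At 8218548 to 15585778 fragments per library, a gene with 0 fragments was given an upper limit of 3.

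The genes and lists were chosen with earlier results of these data known, so their counts are descriptions. Named were the 10 genes, *Fgfr2*, their relatives, at most 3 genes of each further list per tissue comparison (past the threshold, smallest p) and the 3 genes most like *Scx*, *Tnmd* and *Mkx*. One gene that this rule named is not reported here. Other settings tried were DESeq2 1.42.0, edgeR's quasi-likelihood test, 2 other filters, 2 other normalizations, sample quality weights, other blocks, fits of fewer libraries, tissue effects of single genotypes from the full fit, and leaving out each library. The procedure was tested on simulated counts.

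Deviations from group means were correlated to check the pairing. Between tissues of the same embryo r averaged 0.00115 (-0.0863 to 0.105, 18 pairs), and between equal numbers of the genotypes 0.0356 (-0.152 to 0.277, 9 pairs), of which 3 exceeded 0.1. Equal numbers of different genotypes are not stated to be littermates of one litter and were not treated as pairs. Promoters are from RefSeq on GRCm38.p6, and figures were drawn with matplotlib 3.10.9.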

Additional observations from a re-analysis of the deposited data

How the results depend on the processing

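Of the tissue differences of the 10 genes (those of *Scx*, *Tnmd* and *Cilp*, counted here by their fitted p, are descriptions), 254 of the values under other settings stayed on their side of the threshold in the same direction, 22 lost the call, 5 gained it and 10 changed sign. Leaving out 1 library gave 492, 27, 8 and 13. Of the genotype differences (those of *Scx* and *Cilp* in bone likewise counted by their fitted p) 244 stayed, 0 lost a call, 4 gained one and 4 changed sign, and with 1 library left out 525, 0, 1 and 14 did. The calls of *Prrx1*, *Thbs2*, *Postn* and *Pdgfra* between MC and condylar cartilage held under every setting run. Each sign change was of a difference that passed in neither fit.

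The number of genes that passed moved by more than 1.5 times as follows. In the bone genotype comparison (10 genes) it was 4 with edgeR, 17 with DESeq2, 21 with filterByExpr, 53 without a filter, 589 with sample quality weights and 141 with the 6 bone libraries alone. In MC (0 genes) it was 90 with edgeR, 423 with DESeq2 and 45 without a filter, and in condylar cartilage (0 genes) 3 with DESeq2 and 2 with weights. For the interaction of MC and bone (4 genes) it was 1 with edgeR, 68 with DESeq2, 1 with filterByExpr and 0 without a filter. For MC and condylar cartilage (0 genes) it was 40 with DESeq2 and 1 with weights, and for condylar cartilage and bone (0 genes) 2 with DESeq2 and 6 with weights. Without a filter, where 25857 genes were tested, 12952 genes passed between MC and bone (5657 with it) and 10564 between MC and condylar cartilage (6613). Of those between MC and bone 8430 were higher and 4522 lower in MC, against 2823 and 2834 with the filter. For the tissue effect of 1 genotype alone, taken from the fit of all 18 libraries, 3668 passed between MC and bone in *Fgfr2+/+*. In *Fgfr2+/S252W* alone 3448 passed between condylar cartilage and bone (5370 in both). The causes of these shifts were not tested.

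With 1 library left out, the counts ranged from 4590 to 5838 between MC and bone, 5865 to 6607 between MC and condylar cartilage and 4561 to 5627 between condylar cartilage and bone. They were 0 (without *Fgfr2+/+* bone replicate 1) to 91 (without replicate 3) for genotype in bone, 0 to 138 (without *Fgfr2+/+* MC replicate 2) in MC and 0 to 0 in condylar cartilage. For the interactions they were 0 to 8 (without *Fgfr2+/+* bone replicate 3) between MC and bone, 0 to 0 between MC and condylar cartilage and 0 to 1 between condylar cartilage and bone.

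With a replicate block of equal numbers, 12 genes passed between genotypes in bone and 0 in either cartilage, and no call of the 10 genes changed. With no replicate block for embryos, 5853, 6449 and 5603 genes passed between tissues and 6, 0 and 0 in the interactions, and *Mkx* between condylar cartilage and bone turned to -0.0058.

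The sign changes were these. *Cilp* between MC and condylar cartilage (0.07) was -1.56 with edgeR, -0.99 with DESeq2, -0.38 without a filter, -1.82 in *Fgfr2+/+* alone and -1.11 to 1.19 with 1 library left out. *Cilp* and *Postn* between MC and bone were 1.39 and 0.16, and *Scx* between condylar cartilage and bone 0.090, in *Fgfr2+/S252W* alone. *Mkx* between condylar cartilage and bone (0.04) was -0.18 with weights, -0.17 in *Fgfr2+/+* alone and -0.12 to 0.21 with 1 library left out. In the genotype comparisons, *Postn* in MC (0.06) was -0.048 without a filter, *Thbs2* in MC (-0.02) 0.084 with weights, and *Prrx1* in condylar cartilage (-0.05) 0.0099 without a filter and 0.077 with weights. With 1 library left out, these were -0.086 to 0.36, -0.11 to 0.15 and -0.22 to 0.25, *Mkx* was -0.072 to 0.27 in MC and -0.26 to 0.012 in bone, *Scx* was -1.29 to 0.32 in MC and *Tnmd* -0.79 to 1.02 in MC.

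Counts of *Scx*, *Tnmd* and *Cilp* are too low for small differences, and a median SD within groups of 0.49 on the log2 scale in MC (0.22 in bone, 0.32 in condylar cartilage) limits the MC comparisons of all genes.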

Other observations

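RNA of vessels and of macrophages and osteoclasts was higher in bone than in MC and higher in MC than in condylar cartilage. The summed normalized count of 6 endothelial genes was 183 to 249 in bone, 20.8 to 86.5 in MC and 5.76 to 23.8 in condylar cartilage, and all 4 tested were lower in MC than in bone and higher in MC than in condylar cartilage (24.7% and 29.1% of all genes were), although the lowest MC sum lay below the highest condylar sum of the same embryo. That of 6 macrophage and osteoclast genes was 852 to 2210, 101 to 237 and 15.3 to 36.0, with 5 of 5 tested called in each of these directions. That of 5 red blood cell genes was 313 to 1503, 106 to 475 and 33.2 to 222, with overlap between tissues, and 3 of 5 were called lower in MC than in bone and 3 of 5 higher in MC than in condylar cartilage. Genes of nerve and Schwann cells and of epithelium did not pass the filter, and their sums were at most 13.4 and 4.20 in any library. Between genotypes, all 5 macrophage and osteoclast genes tested gave higher values in *Fgfr2+/S252W* bone (median log2 difference 0.94, none called), and all 5 red blood cell genes lower values (median -1.57, none called).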
